A study of Homo sapiens with 18 samples.

Results

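Type I interferon-stimulated genes are the genes that cells switch on when interferons alpha and beta bind their receptor, and many of them are also switched on directly by sensors of foreign nucleic acid. The set described here held 46 such genes, taken as a fixed list of symbols: 8 that recognise RNA or DNA, 11 that act in signalling, transcription or its regulation, and 27 effectors. All 46 were found among the 60649 genes of the count table. Of these, 43 passed the filter on low counts, which left 15390 genes in all. The nucleic acid sensor IFI16, the transcription factor IRF9 and the antiviral GTPase MX2 did not pass, with 132, 31 and 81 counts summed over 18 libraries. In GENCODE 29, 48.4% of the exon bases of IRF9 are shared with another gene on the same strand, AL136295.5, so its counts may not show its full expression.

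The libraries came from LNCaP, an androgen-responsive human prostate cancer cell line, and were made from total RNA depleted of ribosomal RNA. There were 6 groups of 3 biological triplicates: UPF1 siRNA, RCOR1 siRNA and control siRNA, each with 5 nM R1881, a synthetic androgen, and the same 3 siRNAs each with the vehicle ethanol. UPF1 is the RNA helicase at the centre of nonsense-mediated decay, and RCOR1 is the scaffold of the CoREST repressor complex. Every group was transfected, the control with a non-targeting pool, so no value here is from cells without siRNA. Every group was kept in medium deprived of androgen from the day after transfection, was treated 48 h after transfection and was harvested 48 h later. Each target was lowered with 1 siRNA pool, and the labels name no treatment with interferon.

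Viral or misplaced cellular RNA is sensed by the helicases encoded by DDX58 (RIG-I) and IFIH1 (MDA5), which signal through MAVS to the transcription factors IRF3 and NF-kB and so to the interferon genes. Secreted interferon binds IFNAR1 and IFNAR2, whose kinases JAK1 and TYK2 phosphorylate transcription factors such as STAT2. With IRF9, STAT2 is part of a complex that binds the interferon-stimulated response element (ISRE) in the promoters of its target genes. LNCaP cells have been described as poorly responsive to interferon, with a loss of JAK1 function.

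The promoter stretches below are shown because they hold matches of the ISRE motif. Whether interferon acts through these matches was not tested. The stretches belong to the 6 members with an ISRE match that changed most with UPF1 siRNA in vehicle. Only members in the RefSeq promoter table (build GRCh38.p14) were eligible. Each is written 5′ to 3′ on the gene's own strand, with the ISRE in capitals.
RSAD2, chr2:6877607-6877666, plus strand: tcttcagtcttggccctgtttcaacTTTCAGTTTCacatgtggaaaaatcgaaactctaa
IFIT3, chr10:89327816-89327909, plus strand: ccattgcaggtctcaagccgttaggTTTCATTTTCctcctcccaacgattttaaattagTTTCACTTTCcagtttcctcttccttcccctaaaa
IFI27, chr14:94110603-94110675, plus strand: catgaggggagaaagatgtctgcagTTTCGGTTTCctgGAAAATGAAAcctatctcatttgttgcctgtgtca
IFIT1, chr10:89392482-89392554, plus strand: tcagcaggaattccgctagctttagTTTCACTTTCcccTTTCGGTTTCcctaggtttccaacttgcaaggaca
DDX60, chr4:168318771-168318865, minus strand: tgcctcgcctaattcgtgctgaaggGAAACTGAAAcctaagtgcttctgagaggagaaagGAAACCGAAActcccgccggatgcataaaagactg
PARP14, chr3:122680785-122680844, plus strand: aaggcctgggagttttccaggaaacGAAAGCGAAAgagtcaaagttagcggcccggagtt

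The ISRE was searched as 2 copies of GAAA with any 2 bases between them, on both strands, in windows from 250 bases before to 50 after each RefSeq transcription start. Matches of the motif may overlap each other. The table held windows for 38 of the 46 members, and 24 of the 38 (63.2%) held at least 1 match, against 1195 of all 27305 genes in the table (4.38%). The share was 16 of 22 effectors (72.7%), 5 of 9 signalling members (55.6%) and 3 of 7 sensors (42.9%). The GAS element, another sequence known from interferon-responsive promoters, searched on both strands as TTCNNNGAA, was in 12 of the 38 members (31.6%) and in 9.38% of all genes. In IFIT1 and IFI27 the pair of matches stood 13 bases apart, and the matches of IFIT1 began 116 and 103 bases before the start. The match of RSAD2 lay at a start other than the first one listed for the gene.

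**Figure D1:**
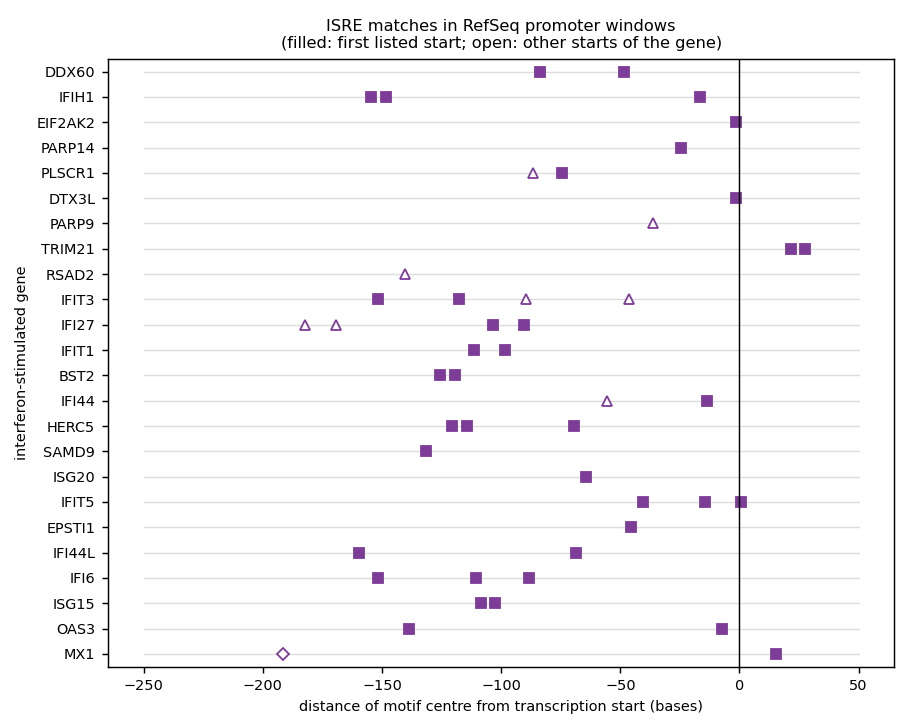
Distance in bases from the transcription start (x axis) of the centre of each ISRE match in the 24 members with a match (y axis). Filled symbols belong to the first listed start of a gene and open symbols to its other starts. Most matches lie before the start, those of EIF2AK2, DTX3L and 1 of IFIT5 span it, and those of TRIM21 and 1 of MX1 lie after it.

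Library totals ran from 10299607 to 17338235 counts, and values are given as CPM, counts scaled to the size of each library with TMM factors, which compare libraries for 1 gene. UPF1 stood at 26.8, 26.5 and 25.5 CPM with its siRNA in R1881, against 164, 141 and 143 CPM with control siRNA. In vehicle it stood at 20.5, 22.0 and 25.9 CPM with its siRNA, against 123, 155 and 126 CPM. RCOR1 stood at 12.8, 12.3 and 12.4 CPM with its siRNA in R1881, against 68.2, 85.4 and 85.5 CPM with control siRNA, and in vehicle at 15.8, 9.08 and 13.6 CPM against 102, 89.7 and 107 CPM. Each siRNA thus lowered its target in all of its libraries. With RCOR1 siRNA and R1881, UPF1 itself stood at 128, 113 and 109 CPM against 164, 141 and 143 CPM with control siRNA (-0.36 ± 0.11, edgeR adjusted p = 0.04), and had -0.32 ± 0.11 in vehicle (edgeR adjusted p = 0.067). Libraries also differed in AT-rich transcripts: libraries 1 and 2 with UPF1 siRNA and R1881 stood apart, with median deviations of -0.77 and -0.58 log2 CPM over genes under 40% GC, against 0.05 in library 3. Counts over all members that rest on that group are given with and without these 2 libraries. Counts by role, by GC content, by ISRE match, of the pathway lists and of the luminal markers are given only with them. Without them the group holds 1 library, assumed to vary like those of the other groups. That fit tested 16342 genes, 45 of them members, and its calls are fewer among all genes too. The 9 luminal prostate markers summed to between 4874 and 14121 CPM. With UPF1 siRNA against control siRNA in R1881, 1 of the 9 was higher and 3 lower, where 17.6% and 15.7% of all genes were. In vehicle 2 of the 9 were higher and 6 lower, where 18.5% and 16.0% of all genes were. The 8 leukocyte markers summed to 0.94 to 1.28 CPM with UPF1 siRNA and 0.90 to 1.32 CPM with control siRNA in R1881, and to 0.55 to 0.79 CPM and 0.27 to 0.49 CPM in vehicle. Of the 8, CD3E, MS4A1 and LILRA4 had 0 counts in all libraries, PTPRC had 3 counts in all, and only CD68 passed the low-count filter. Of the 4 fibroblast markers COL1A1 was the only one tested and was not called with UPF1 siRNA in either treatment. The 3 endothelial markers summed to 12.9 to 15.4 CPM with UPF1 siRNA and 3.51 to 4.90 CPM with control siRNA in R1881, and to 25.3 to 26.6 CPM and 10.1 to 14.0 CPM in vehicle. Nearly all of this was VWF, the only one tested, which had 26.6, 25.2 and 26.3 CPM with UPF1 siRNA against 11.1, 14.0 and 9.99 CPM in vehicle. VWF was higher by 1.71 ± 0.16 in R1881 and by 1.15 ± 0.14 in vehicle (edgeR adjusted p = 1.5e-06 and 1.5e-05). The part of these marker differences in the results below was not tested.

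With UPF1 siRNA in vehicle, interferon-stimulated genes rose across all roles. Of the 43 tested members, 32 were higher and 0 lower than with control siRNA (edgeR's quasi-likelihood test, Benjamini-Hochberg adjusted p below 0.05). Over all genes 18.5% were called higher and 16.0% lower. The median log2 fold change was 1.09 over the members and 0.03 over all genes tested. In 36 of the 43 every library with UPF1 siRNA lay above every control library, and in 0 below, where the shares of all genes were 23.9% and 21.0%. By role, 21 of 26 tested effectors were higher (median 1.21), 7 of 10 signalling members (median 0.51) and 4 of 7 sensors (median 1.02). By base composition, 10 of the 14 members under 43% GC were higher (median 1.21, against 0.15 over all such genes). Of the 29 others 22 were higher (median 0.90, against 0.00). The part of base composition in these rises was not tested beyond these values. The count of higher members lay between 29 and 33 when any 1 library was left out.

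Among sensors, DHX58 and DDX58 rose most. DHX58 (LGP2, ENSG00000108771.13, chr17:42101404-42112733 on GRCh38, minus strand) is a helicase that tunes RIG-I and MDA5. It stood at 7.11, 5.69 and 4.84 CPM with UPF1 siRNA in vehicle, against 1.13, 2.01 and 2.02 CPM with control siRNA. The lowest library with UPF1 siRNA was above the highest control library, and the log2 fold change was 1.79 ± 0.26 (SE, edgeR adjusted p = 6.8e-05). DDX58 (ENSG00000107201.11, chr9:32455705-32526324, minus strand) was near the floor of detection, at 1.05, 2.77 and 2.17 CPM against 0.80, 0.35 and 0.64 CPM. Its counts were only 5 to 35 per library over the series, and its log2 fold change was 1.71 ± 0.39 (edgeR adjusted p = 0.0026). IFIH1 rose by 1.02 ± 0.22 (edgeR adjusted p = 0.0021), and DDX60, a helicase that aids RIG-I, by 1.48 ± 0.41 (edgeR adjusted p = 0.01). The RNA-dependent kinase EIF2AK2 (PKR), the CpG-binding antiviral protein ZC3HAV1 (ZAP) and the RNA editor ADAR were not called, with log2 fold changes of 0.38, -0.04 and 0.04. ADAR was level in all libraries, at 594, 540 and 557 CPM with UPF1 siRNA against 524, 575 and 548 CPM.

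Among the signalling members, the transcription factor IRF1 and the ADP-ribosyltransferase PARP14 rose most. IRF1 (chr5:132481609-132490798, minus strand) had 21.8, 16.8 and 16.0 CPM with UPF1 siRNA in vehicle, against 7.16, 8.81 and 7.52 CPM with control siRNA, which is 1.22 ± 0.15 on the log2 scale (edgeR adjusted p = 1.1e-05). The groups did not overlap. Genes on the opposite strand share 22.0% of the exon bases of IRF1. Reads of these genes may be mixed with its own, as the strand setting of the counts is not given. PARP14 rose by 1.44 ± 0.30 and the phospholipid scramblase PLSCR1 by 1.19 ± 0.24. IRF7, the factor that drives the interferon alpha genes, rose by 0.63 ± 0.22 (edgeR adjusted p = 0.035). USP18, which removes ISG15 from proteins and damps the interferon receptor, rose by 0.39 ± 0.13 (edgeR adjusted p = 0.032). DTX3L, a ubiquitin ligase that pairs with PARP9, and TRIM25, the ubiquitin ligase of RIG-I, rose by 0.62 ± 0.11 and 0.36 ± 0.07. STAT2, TRIM21 and PARP9 were not called, at 0.22, 0.19 and 0.25.

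RSAD2 (viperin, ENSG00000134321.13, chr2:6865806-6898239, plus strand), an enzyme that makes a chain-terminating nucleotide, had the largest change of the set. It stood at 113, 97.5 and 80.9 CPM with UPF1 siRNA in vehicle, against 14.5, 14.7 and 14.9 CPM with control siRNA. The 3 control libraries were nearly equal, and the log2 fold change was 2.72 ± 0.13 (edgeR adjusted p = 1.6e-09). CMPK2, the kinase encoded head to head with RSAD2, rose by 1.09 ± 0.13. The annotated exons of the pair share 0.3% of their bases.

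The IFIT genes encode proteins that bind foreign RNA and block its translation. IFIT3 (chr10:89327894-89340971, plus strand) had 73.9, 66.6 and 55.5 CPM with UPF1 siRNA in vehicle, against 15.2, 13.8 and 17.5 CPM with control siRNA (log2 fold change 2.08 ± 0.19, edgeR adjusted p = 8.6e-07). IFIT2 (chr10:89283694-89309276, plus strand) had 128, 105 and 93.7 CPM against 31.1, 25.2 and 32.4 CPM (1.88 ± 0.21, edgeR adjusted p = 4.3e-06). All libraries with UPF1 siRNA were above all controls for both genes. Other genes share 10.3% of the exon bases of IFIT2. The neighbouring IFIT1 and IFIT5 rose by 1.49 ± 0.12 and 0.97 ± 0.24, so that all 4 members of this 137 kb cluster on chromosome 10 were called.

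The OAS proteins make oligoadenylate when they bind double-stranded RNA, and OASL is a relative that binds RIG-I. OASL (chr12:121019111-121039242, minus strand) had 106, 76.9 and 66.8 CPM with UPF1 siRNA in vehicle, against 19.8, 23.8 and 18.3 CPM with control siRNA (2.01 ± 0.17, edgeR adjusted p = 3.1e-07). OAS1 (chr12:112906777-112933222, plus strand) had 62.1, 49.5 and 43.3 CPM against 13.8, 17.6 and 13.6 CPM (1.78 ± 0.15, edgeR adjusted p = 4.0e-07). Its neighbours OAS2 and OAS3 rose by 1.64 ± 0.14 and 0.43 ± 0.12, so the 3 genes of 1 cluster differed in size of change while none of them overlapped between groups. XAF1 (chr17:6755447-6775647, plus strand), a pro-apoptotic partner of XIAP, had 9.21, 8.06 and 8.37 CPM against 3.18, 1.73 and 1.28 CPM (2.01 ± 0.32, edgeR adjusted p = 1.5e-04). An antisense gene, PRAL, shares 38.3% of the exon bases of XAF1, and the strand setting of the counts is not given in the sources used here, so reads of both genes may be mixed.

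Of the other effectors, 10 rose by log2 fold changes of 0.58 to 1.52. They included the mitochondrial protein IFI27 (1.52 ± 0.21), the antiviral ubiquitin ligase TRIM22 (1.40 ± 0.17), the virus tether BST2 (1.28 ± 0.21), the ISG15 ligase HERC5 (1.19 ± 0.21), the exonuclease ISG20 (1.08 ± 0.16) and ISG15 itself, the ubiquitin-like modifier (0.58 ± 0.18, edgeR adjusted p = 0.018). The 5 effectors not called were MX1 (0.27), IFI44L (0.91), EPSTI1 (0.91), SAMD9 (1.14) and SAMD9L (1.23). SAMD9 differed widely within the group with UPF1 siRNA in vehicle, at 6.32, 30.8 and 39.9 CPM, against 16.1, 9.16 and 9.44 CPM with control siRNA. The same libraries with UPF1 siRNA had median deviations of -0.21, 0.30 and 0.46 log2 CPM over genes under 40% GC. The control libraries had 0.31, -0.32 and 0.13. SAMD9L and EPSTI1 had at most 30 and 27 counts in any library.

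**Figure D2:**
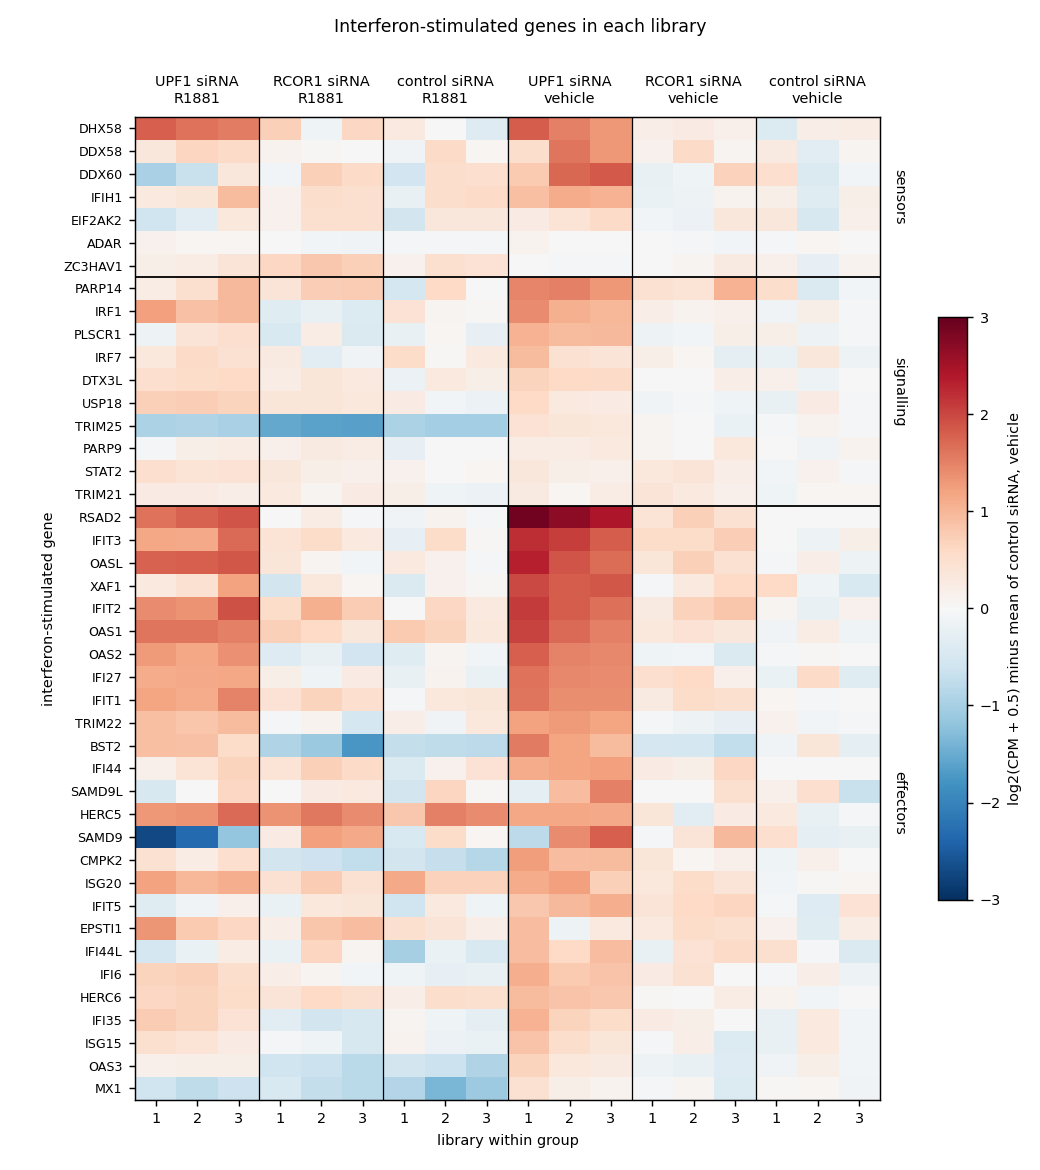
Each row is 1 of the 43 tested members, grouped by role, and each column 1 library. The colour is log2(CPM + 0.5) minus the mean of the control siRNA, vehicle libraries, from -2.71 to 2.90. The libraries with UPF1 siRNA in vehicle are raised in most rows, and RSAD2 is raised most.

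Per kilobase of exon, the members spanned a wide range of levels. With UPF1 siRNA in vehicle the highest 2 were IFI6 and ISG15, at 163 and 134 CPM per kb, against 87.1 and 89.0 CPM per kb with control siRNA. ADAR had 58.2 against 56.7 CPM per kb. RSAD2 had 20.1 CPM per kb against 3.04 CPM per kb, near OASL (23.7 against 5.87 CPM per kb) and IFIT3 (24.7 against 5.87 CPM per kb) with UPF1 siRNA and below both with control siRNA. At the low end, EPSTI1 had 0.12 against 0.07 CPM per kb. Among the 22 members with the higher mean level over all libraries, 16 rose (median 0.70 on the log2 scale). Among the other 21, 16 rose (median 1.19).

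In R1881, about as many members were called higher with UPF1 siRNA as were not called. Against control siRNA, 21 members were higher and 1 was lower, where 17.6% and 15.7% of all genes were. The median log2 fold change was 0.50 over the members and 0.00 over all genes. By role, 16 of 26 effectors were higher and 1 lower (median 0.87). Of the signalling members 4 of 10 were higher (median 0.41), and of the sensors 1 of 7 (median 0.13). Without libraries 1 and 2 of UPF1 siRNA, R1881, these medians were 0.81, 0.38 and 0.27. The called sets shared 19 members, which was 90.5% of the 21 called higher in R1881 and 59.4% of the 32 called higher in vehicle. STAT2 and MX1 were called in R1881 and not in vehicle, 13 members were called in vehicle and not in R1881, and those differences are tested by the interaction below. Without libraries 1 and 2 of UPF1 siRNA, R1881, 16 of 45 members were higher and 0 lower, with a median of 0.56, where 5.66% and 5.99% of all genes were.

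The members with the largest rises were DHX58, RSAD2 and OASL. DHX58 had 7.08, 6.23 and 5.78 CPM with UPF1 siRNA in R1881, against 2.16, 1.68 and 1.17 CPM with control siRNA (log2 fold change 1.91 ± 0.26, edgeR adjusted p = 5.3e-05). RSAD2 had 46.7, 51.0 and 55.5 CPM against 13.6, 15.8 and 14.1 CPM (1.82 ± 0.13, edgeR adjusted p = 1.1e-07). OASL had 71.6, 72.0 and 76.2 CPM against 25.1, 22.3 and 19.7 CPM (1.71 ± 0.17, edgeR adjusted p = 2.5e-06). In all 3 genes, shown for their large rises, the libraries with UPF1 siRNA lay above the controls without overlap. All 3 kept their call without libraries 1 and 2 of UPF1 siRNA, R1881, at 1.71, 1.88 and 1.71. BST2, OAS2, IFI27, IFIT2 and IFIT3 followed, with 1.67, 1.44, 1.32, 1.26 and 1.23. ISG15 was at the threshold, with 0.48 ± 0.18 (edgeR adjusted p = 0.05).

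SAMD9, an endosomal growth-suppressing antiviral factor (chr7:93099513-93118023, minus strand), was the member that fell. It had 1.28, 1.82 and 4.76 CPM with UPF1 siRNA in R1881, against 8.07, 16.6 and 11.6 CPM with control siRNA, which is -2.27 ± 0.63 on the log2 scale (edgeR adjusted p = 0.012). It has the lowest exon GC content of the set, 36.09%, and the 2 lowest values are those of the libraries low in AT-rich genes. The call was lost without library 1 (-1.90) or library 2 (-2.08) of that group, and without both the value was -1.39 (edgeR adjusted p = 0.34). The part of base composition in this difference was not tested.

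**Figure D3:**
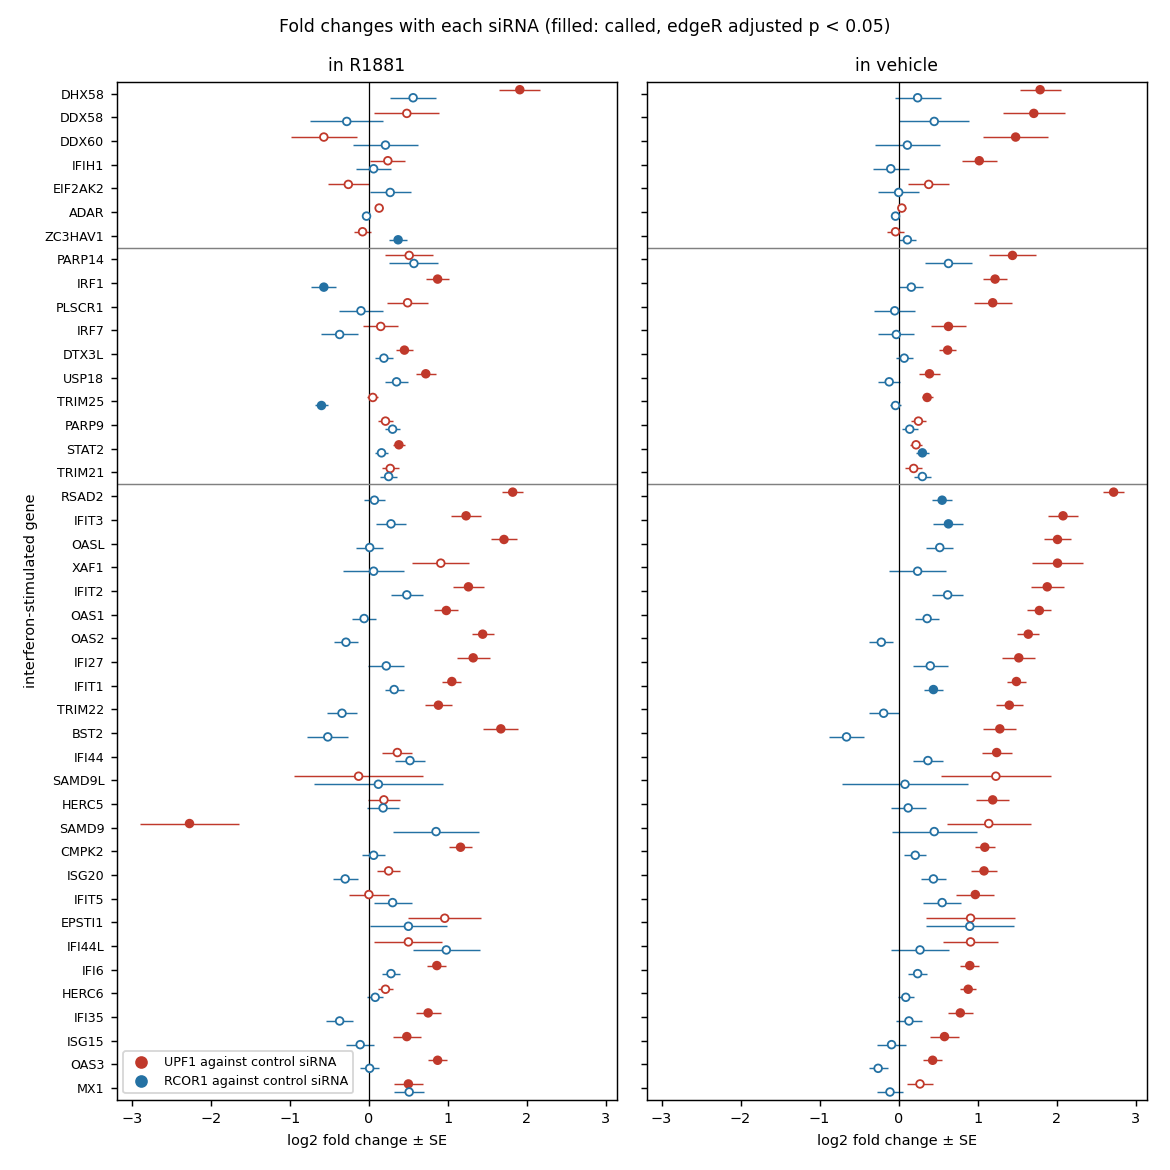
Log2 fold change ± SE (x axis) of each tested member (y axis, by role) with UPF1 siRNA and with RCOR1 siRNA against control siRNA, in R1881 (left) and in vehicle (right); filled points were called. The points for UPF1 siRNA lie to the right in most rows in vehicle, those for RCOR1 siRNA lie near 0, and SAMD9 at -2.27 stands alone on the left in R1881.

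RCOR1 siRNA changed few members. In vehicle, 4 of the 43 were higher (9.3%) and 0 lower, where 5.31% and 6.21% of all genes were, with a median of 0.16. IFIT3 had 22.9, 23.0 and 26.1 CPM with RCOR1 siRNA, against 15.2, 13.8 and 17.5 CPM with control siRNA (0.63 ± 0.19, edgeR adjusted p = 0.045). RSAD2 had 19.7, 24.5 and 20.5 CPM against 14.5, 14.7 and 14.9 CPM (0.55 ± 0.13, edgeR adjusted p = 0.01). IFIT1 had 37.3, 45.8 and 43.2 CPM against 32.1, 29.7 and 31.4 CPM (0.44 ± 0.12, edgeR adjusted p = 0.03). STAT2, a subunit of the ISRE-binding complex, had 80.2, 83.7 and 73.6 CPM against 60.6, 70.6 and 61.8 CPM (0.30 ± 0.08, edgeR adjusted p = 0.032). The groups did not overlap in any of the 4, which are shown because they were called, so this adds little to the calls. The share called is near that of all genes. Without library 2 of RCOR1 siRNA, vehicle, 0 members were higher, with RSAD2 at 0.45, IFIT1 at 0.37 and STAT2 at 0.26. The call of IFIT3 was lost in 11 of the 18 fits that left out 1 library, that of STAT2 in 7 and that of IFIT1 in 5, with log2 fold changes of 0.55 to 0.72, 0.25 to 0.37 and 0.37 to 0.52.

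In R1881, RCOR1 siRNA gave 1 higher member and 2 lower ones, where 5.06% and 7.33% of all genes were called. The median was 0.16. TRIM25 had 82.9, 78.8 and 77.4 CPM with RCOR1 siRNA, against 125, 119 and 119 CPM with control siRNA (-0.60 ± 0.08, edgeR adjusted p = 8.9e-05). IRF1 had 5.94, 6.67 and 5.70 CPM against 10.7, 8.33 and 8.04 CPM (-0.57 ± 0.16, edgeR adjusted p = 0.026). ZC3HAV1 had 258, 291 and 275 CPM against 183, 231 and 224 CPM (0.37 ± 0.11, edgeR adjusted p = 0.039). None of these groups overlapped, but the genes are shown because they were called. The call of IRF1 was lost without library 1 (-0.55) or 3 (-0.52) of RCOR1 siRNA, R1881 or library 1 of control siRNA, R1881 (-0.42). That of ZC3HAV1 was lost without library 2 (0.33) or 3 (0.37) of RCOR1 siRNA, library 2 of UPF1 siRNA (0.37) or library 1 of control siRNA (0.28), all in R1881. That of TRIM25 held when any 1 library was left out.

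Set directly against RCOR1 siRNA, UPF1 siRNA gave higher levels of most members. In vehicle 31 were higher and 0 lower, where 18.2% and 14.9% of all genes were, with a median log2 fold change of 0.81. In R1881 22 were higher and 2 lower, where 21.8% and 18.8% of all genes were, with a median of 0.55. BST2 had 12.8, 12.5 and 10.0 CPM with UPF1 siRNA in R1881, against 3.30, 2.81 and 1.63 CPM with RCOR1 siRNA (2.19 ± 0.23, edgeR adjusted p = 3.6e-06). In vehicle it had 20.5, 15.6 and 13.3 CPM against 4.55, 4.47 and 3.77 CPM (1.95 ± 0.22, edgeR adjusted p = 5.4e-06). The groups overlapped in neither treatment for BST2. These comparisons share the UPF1 libraries with those above.

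OAS2 had 20.8, 19.0 and 22.1 CPM with UPF1 siRNA in R1881, against 6.23, 7.02 and 5.37 CPM with RCOR1 siRNA (1.73 ± 0.14, edgeR adjusted p = 3.1e-07). In vehicle it had 29.9, 24.0 and 23.2 CPM against 7.48, 7.75 and 6.02 CPM (1.85 ± 0.14, edgeR adjusted p = 1.1e-07). RSAD2 differed by 1.74 ± 0.13 in R1881 and by 2.17 ± 0.13 in vehicle, and XAF1 by 1.77 ± 0.31 in vehicle. In XAF1 the libraries with RCOR1 siRNA had 1.87, 2.51 and 3.21 CPM, all below the lowest with UPF1 siRNA. The 2 lower members in R1881 were SAMD9 (-3.12 ± 0.63) and ZC3HAV1 (-0.45 ± 0.11). Without libraries 1 and 2 of UPF1 siRNA, R1881, 17 members were higher in R1881 and 0 lower, where 7.88% and 6.45% of all genes were. There SAMD9 had -2.25 (edgeR adjusted p = 0.1), while BST2, RSAD2 and OAS2 kept their calls at 1.90, 1.81 and 1.78.

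**Figure D4:**
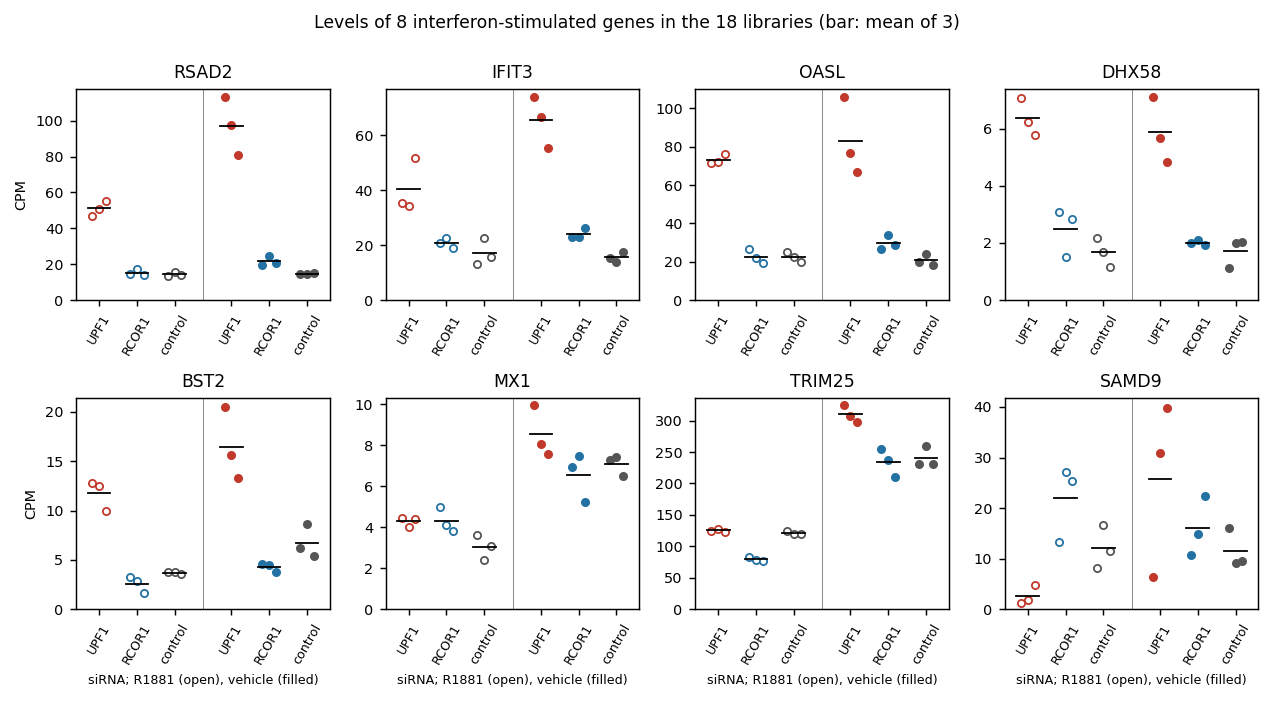
CPM (y axis, from 0) of 8 members in the 18 libraries, by siRNA, in R1881 (open points, left) and vehicle (filled points, right), with bars at the mean of 3 libraries. RSAD2, IFIT3, OASL, DHX58 and BST2 are highest with UPF1 siRNA in both treatments, MX1 and TRIM25 are lower in R1881 with each siRNA, and SAMD9 is lowest with UPF1 siRNA and R1881.

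R1881 itself moved a few members with control siRNA. Against vehicle, 5 were higher and 5 lower, where 20.1% and 17.6% of all genes were, with a median of 0.04. These shares are below those of all genes. HERC5 (chr4:88457117-88506163, plus strand) had 11.2, 18.5 and 17.3 CPM in R1881, against 7.69, 5.20 and 5.87 CPM in vehicle (log2 fold change 1.32 ± 0.21, edgeR adjusted p = 1.1e-04). ISG20 had 19.0, 14.0 and 13.9 CPM against 7.88, 8.67 and 8.80 CPM (0.89 ± 0.16, edgeR adjusted p = 3.0e-04). MX1, the dynamin-like GTPase that traps viral nucleocapsids, had 3.60, 2.41 and 3.07 CPM against 7.29, 7.42 and 6.51 CPM (-1.22 ± 0.18, edgeR adjusted p = 4.0e-05). TRIM25 had 125, 119 and 119 CPM against 231, 260 and 231 CPM (-0.99 ± 0.08, edgeR adjusted p = 3.0e-08). The treatments did not overlap in any of these 4 genes, which are shown as the most changed of those called. OAS1, HERC6 and ZC3HAV1 were the other higher members (0.61, 0.41 and 0.34), and BST2, CMPK2 and OAS3 the other lower ones (-0.86, -0.74 and -0.70).

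With RCOR1 siRNA, R1881 gave 4 higher members (USP18, ZC3HAV1, HERC5 and HERC6) and 8 lower ones, where 16.3% and 14.9% of all genes were called, with a median of -0.03. TRIM25 fell by 1.56 ± 0.08 and HERC5 rose by 1.38 ± 0.21. When library 3 of RCOR1 siRNA, R1881 was left out, 4 members were lower.

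With UPF1 siRNA, R1881 gave 2 higher members (ZC3HAV1 and STAT2) and 15 lower ones, where 21.6% and 20.0% of all genes were called. The median was -0.29, against -0.01 over all genes. Of the 15, 10 were effectors, 3 signalling members and 2 sensors. RSAD2, with 46.7, 51.0 and 55.5 CPM in R1881 against 113, 97.5 and 80.9 CPM in vehicle, fell by 0.93 ± 0.12 (edgeR adjusted p = 1.4e-05). The median fall was larger under 43% GC, a limit chosen after values were seen, and all genes showed such a difference too. This split is given only with libraries 1 and 2 of UPF1 siRNA, R1881, which were low in AT-rich genes. Among the 14 members under 43% GC, 8 were lower (median -0.88, against -0.42 over all such genes), and among the 29 others 7 were lower (median -0.19, against 0.08). Without libraries 1 and 2 of UPF1 siRNA, R1881, 3 members were lower and 0 higher, where 7.84% of all genes were lower and 10.1% higher, and the median was -0.34. Under offsets for GC content in each library 17 were lower and 4 higher, with a median of -0.26. The part of base composition in these falls was not tested beyond these values.

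**Figure D5:**
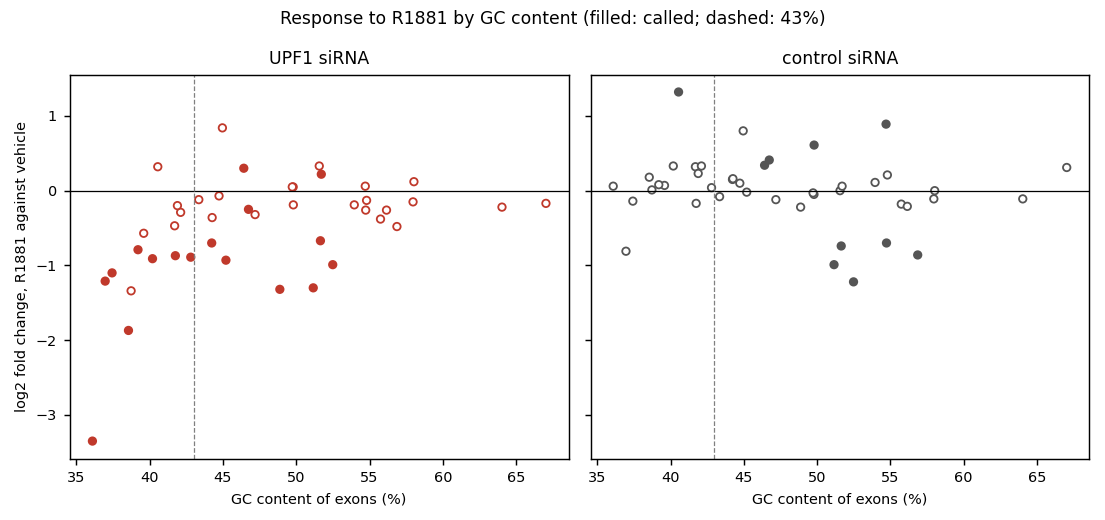
Log2 fold change of R1881 against vehicle (y axis) by the GC content of exons in percent (x axis) for the 43 members, with UPF1 siRNA (left) and control siRNA (right); filled points were called and the dashed line is at 43%. With UPF1 siRNA the members under 43% GC lie lower, with a median of -0.88, and SAMD9 at 36.09% GC is the lowest point at -3.35.

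The test of whether UPF1 siRNA acted differently in R1881 is the interaction, the R1881 response with UPF1 siRNA minus that with control siRNA. It called 0 members higher and 3 lower, where 1.35% and 1.37% of all genes were called, with a median of -0.41 over the members and 0.00 over all genes. RSAD2 had -0.91 ± 0.18 (edgeR adjusted p = 0.012), and its rise with UPF1 siRNA was 1.82 in R1881 and 2.72 in vehicle. HERC6, a HECT ligase relative of HERC5, had -0.67 ± 0.14 (edgeR adjusted p = 0.017). It stood at 44.3, 45.5 and 42.3 CPM with UPF1 siRNA and 32.9, 41.2 and 40.0 CPM with control siRNA in R1881, against 55.3, 52.2 and 49.9 CPM and 30.5, 26.8 and 28.3 CPM in vehicle. The 2 siRNAs did not overlap in HERC6 in either treatment, but lay closer in R1881. SAMD9 had -3.41 ± 0.83 (edgeR adjusted p = 0.04). All 3 calls were lost without libraries 1 and 2 of UPF1 siRNA, R1881 (adjusted p = 0.24 for RSAD2, 0.16 for HERC6 and 0.46 for SAMD9), with values of -0.78, -0.72 and -2.46. In that fit, with 1 library in the group, 0.135% of all genes were called higher and 0.233% lower, so the lost calls do not show smaller differences. The call of RSAD2 was also lost without library 2 of control siRNA, R1881 (-0.79), and that of HERC6 without that library (-0.54) or library 2 of control siRNA, vehicle (-0.61). That of SAMD9 was lost in 11 of the 18 fits that left out 1 library, which ranged from -4.10 to -2.92. Of the 13 members called with UPF1 siRNA in vehicle and not in R1881, only HERC6 was called in the interaction.

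The interaction of RCOR1 siRNA with R1881 called 0 members higher and 1 lower, where 0.227% and 0.539% of all genes were called, with a median of -0.05. The member was TRIM25, with -0.56 ± 0.11 (edgeR adjusted p = 0.019). TRIM25 had 82.9, 78.8 and 77.4 CPM with RCOR1 siRNA and 125, 119 and 119 CPM with control siRNA in R1881, against 255, 238 and 210 CPM and 231, 260 and 231 CPM in vehicle. The call was lost in 9 of the 18 fits that left out 1 library, which ranged from -0.63 to -0.49.

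The other genes of the pathway were read from lists of ligands, receptors, upstream factors, inhibitors and NF-kB targets. None of the 10 interferon genes listed passed the low-count filter. IFNB1, the first interferon made on sensing, had 16 counts over the 3 libraries with UPF1 siRNA and 9 with control siRNA in R1881, and 14 and 4 in vehicle. IFNL1 had 22 and 6 counts in R1881, and 16 and 4 in vehicle. IFNL2 had 9 and 4 counts in R1881, and went the other way in vehicle with 1 and 4. IFNL3 had 3 and 3 counts in R1881, and 3 and 2 in vehicle. IFNA1, IFNA2 and IFNW1 had 0 counts in every library. The transcript of 1 sensor, CGAS, and of its adaptor STING1 totalled 23 and 52 counts.

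The counts below stand against the shares of all genes given above, 17.6% higher and 15.7% lower with UPF1 siRNA in R1881, and 18.5% and 16.0% in vehicle. Of the receptor and kinase list, 10 of 11 genes were tested. UPF1 siRNA gave 1 higher and 1 lower gene in R1881, and 2 higher and 1 lower in vehicle. JAK1 was detected at 7.56 to 14.4 CPM over the 18 libraries and was not called with either siRNA. Of the 12 upstream genes tested, 3 were higher with UPF1 siRNA in R1881, and 2 higher and 1 lower in vehicle. Of 9 inhibitors tested, 1 was higher and 2 lower with UPF1 siRNA in R1881. In vehicle 2 were higher (SOCS1, 1.35 ± 0.42, and NLRC5, 0.76 ± 0.16) and 1 lower. SOCS1 had only 2 to 33 counts per library over the series. The median log2 fold changes in R1881 were 0.07 for the receptors and kinases, 0.04 for the upstream genes and -0.32 for the inhibitors. Without libraries 1 and 2 of UPF1 siRNA, R1881, they were 0.15, 0.02 and -0.12.

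NF-kB targets and chemokines were also higher with UPF1 siRNA. Of 12 listed, 7 were tested; 5 were higher with UPF1 siRNA in R1881 (median of the 7, 1.22) and all 7 in vehicle (median 2.36), beside the same shares of all genes. Without libraries 1 and 2 of UPF1 siRNA, R1881, the median of the 7 in R1881 was 0.85. With R1881 against vehicle this list differed from the members in its values. With UPF1 siRNA 3 of the 7 were higher and 0 lower (median 0.82), where 21.6% and 20.0% of all genes were. With control siRNA 6 were higher and 0 lower (median 1.93), where 20.1% and 17.6% of all genes were. CXCL10, a chemokine that is itself induced by interferon, had 7.96, 9.38 and 12.8 CPM with UPF1 siRNA in R1881, against 5.05, 3.65 and 4.07 CPM with control siRNA, and 6.51, 4.50 and 3.90 CPM against 1.46, 0.76 and 1.10 CPM in vehicle. CXCL10 was therefore raised by UPF1 siRNA in each treatment without overlap (1.22 ± 0.23 and 2.16 ± 0.29). CCL5 and CXCL11 rose by 1.58 ± 0.34 and 1.50 ± 0.30 in R1881, and by 2.36 ± 0.36 and 2.83 ± 0.34 in vehicle. Both were near the floor with control siRNA in vehicle, at 10, 3 and 6 counts for CCL5 and 9, 7 and 8 for CXCL11. CXCL8, also among the 7, had 31, 3 and 15 counts with UPF1 siRNA in vehicle against 1, 3 and 2, which overlap. The median of 2.36 is the value of CCL5. BIRC3, an inhibitor of apoptosis, averaged 36.1 ± 28.5 CPM with UPF1 siRNA in R1881, with 68.9 CPM in library 3, against 47.2 ± 16.7 CPM with control siRNA (SD, n = 3 each), and was not called (-0.40 ± 0.42). In vehicle it averaged 75.1 ± 13.3 CPM against 10.3 ± 2.37 CPM, a rise of 2.87 ± 0.45. Its interaction was -3.26 ± 0.61 (edgeR adjusted p = 0.0097), and -2.31 without libraries 1 and 2 of UPF1 siRNA, R1881 (edgeR adjusted p = 0.086), where the value in R1881 was 0.50. RCOR1 siRNA called 0 of the 7 in each treatment. Of all genes it called 5.06% higher and 7.33% lower in R1881, and 5.31% and 6.21% in vehicle.

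The rise with UPF1 siRNA was seen in members with and without an ISRE match. With UPF1 siRNA in R1881, 10 of the 24 members with an ISRE were higher and 1 lower (median 0.48), and 5 of the 12 tested members whose windows held no match were higher and 0 lower (median 0.43), where 17.6% and 15.7% of all genes were. Without libraries 1 and 2 of that group, the medians were 0.53 with a match and 0.50 without one. In vehicle 17 of 24 (median 1.05) and 8 of 12 (median 0.99) were higher, where 18.5% of all genes were. The windows cover only a short stretch before each start, and 8 members have none, among them DHX58, OASL, OAS2 and IFIT2. In vehicle 74.4% of the tested members were higher, so neighbours called together are no result about position. Such neighbours were the 4 IFIT genes, the 3 OAS genes on chromosome 12, both HERC genes, and RSAD2 with CMPK2. Of PARP9, DTX3L and PARP14, 2 were called. IFI44 rose (1.24 ± 0.19) while its neighbour IFI44L was not called, and neither SAMD9 nor SAMD9L was. In R1881, with 48.8% of members higher, the calls were 3 IFIT genes, 3 OAS genes, 0 HERC genes, and RSAD2 with CMPK2. Of PARP9, DTX3L and PARP14, 1 was called there.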

How the data were processed

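The deposited values were whole-number counts of reads per gene and library, not normalized. Per the submitters' processing notes, the authors used bcl2fastq 2.20, STAR 2.7.9a, featureCounts of Subread 1.6.4 and the build GRCh38.p7; the sources used here give neither the annotation release nor the strand setting. The tests used edgeR 4.0.16 under R 4.3.3: genes were filtered with filterByExpr by group, libraries were TMM-scaled, and a model with a mean for each group took in all 18 libraries (common dispersion 0.024). The 11 contrasts were tested with the quasi-likelihood F test and adjusted over all 15390 genes by the Benjamini-Hochberg method. SE was obtained from the F statistic, as the size of the log2 change over its square root. The comparison of UPF1 siRNA with control siRNA in vehicle was tried on simulated counts. These had the same spread for all genes and no differences in base composition between libraries. They therefore do not bear on such differences or on the other contrasts. Coordinates, exon lengths and GC content came from GENCODE 29 (GRCh38), and promoter windows from RefSeq.

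The members and lists were chosen with earlier results of these data known, and the GC limit of 43% after values were seen. Values per library are given for the 8 most changed called members with UPF1 siRNA in vehicle, the 4 most changed in each other comparison of siRNAs and in R1881 with control siRNA, and those called in an interaction; other genes are named to describe a family or list. Replicates were numbered in accession order. Alternatives were DESeq2 1.42.0, library size alone, RLE factors, no low-count filter, CPM of at least 1 in 3 libraries, only the groups compared, GC content offsets, and libraries left out. Values of some genes of the pathway lists are not reported here.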

Additional observations from a re-analysis of the deposited data

Results flagged for a closer look

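The response to R1881 differed between siRNAs, by the interaction in edgeR's quasi-likelihood test, in 4 members. With UPF1 siRNA the interaction was -0.91 for RSAD2, -0.67 for HERC6 and -3.41 for SAMD9. With RCOR1 siRNA it was -0.56 for TRIM25. RSAD2 and HERC6 kept their sign, and lost the call, when libraries 1 and 2 of UPF1 siRNA, R1881 were both left out, a fit with 1 library in that group and few calls among all genes. SAMD9, the member with the lowest GC content, lost its call in 11 of the 18 fits that left out 1 library. TRIM25 fell in R1881 with each of the 3 siRNAs, and by most with RCOR1 siRNA.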

How the results depend on the processing

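The rise of the members with UPF1 siRNA in vehicle held under all alternatives run, with 29 to 36 of the members higher and 0 lower, and in R1881 with 16 to 30 higher. None of the 35 values of 20 members that were recomputed changed direction under any alternative. These 35 were picked as the most changed called members in the same data, so a change of direction was unlikely from the start. Other values were not recomputed one by one. Counts of few members moved most. With UPF1 siRNA in R1881, 0 were lower without libraries 1 and 2 of that group, and 0 to 1 with 1 library left out. With RCOR1 siRNA in vehicle, 2 were higher when only the groups compared were fitted and 9 under GC content offsets, and 1 and 2 were lower with no low-count filter and under GC content offsets; with 1 library left out 0 to 5 were higher and 0 to 1 lower. With RCOR1 siRNA in R1881, 2 were higher by DESeq2, 4 by library size alone, 2 by RLE factors, 3 with no low-count filter, 2 at a CPM of at least 1 in 3 libraries, 0 with only the groups compared, 5 under GC content offsets and 0 without libraries 1 and 2 of UPF1 siRNA, R1881. There 1 was lower by library size alone, with no filter and with only the groups compared, and 1 library left out gave 0 to 2 higher and 1 to 2 lower.

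For R1881 with UPF1 siRNA, 1 was higher by DESeq2, by RLE factors, with no filter and with only the groups compared, 0 by library size alone and without libraries 1 and 2 of UPF1 siRNA, R1881, and 4 under GC content offsets; 3 were lower without those 2 libraries, and 1 library left out gave 0 to 3 higher. By library size alone, R1881 gave 2 higher members with RCOR1 siRNA, and 2 higher and 9 lower with control siRNA; with only the groups compared, 3 were higher with control siRNA. With 1 library left out, R1881 with RCOR1 siRNA gave 4 to 9 lower. The interaction of UPF1 siRNA called 8 lower by DESeq2 and under GC content offsets, 10 with no filter, 1 with only the groups compared, 0 without libraries 1 and 2, and 0 to 8 with 1 left out. That of RCOR1 siRNA called 0 by library size alone, by RLE factors, with no filter, with only the groups compared and without those 2 libraries, and 0 to 1 with 1 left out. UPF1 against RCOR1 siRNA gave 1 lower in vehicle under GC content offsets, and in R1881 4 lower with no filter, 0 without libraries 1 and 2 and 2 to 4 with 1 left out. The causes were not tested. No paired analysis was run because the labels give no shared replicate numbers.

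Library size alone shifted the median of all genes by 0.12 for UPF1 siRNA in R1881 (3617 higher and 1773 lower, against 2710 and 2418 by TMM), and for R1881 by -0.09 with UPF1 siRNA (2295 and 3852, against 3321 and 3084), -0.19 with RCOR1 siRNA (1524 and 3682, against 2508 and 2288) and -0.24 with control siRNA (1690 and 4696, against 3090 and 2711). For the interaction of UPF1 siRNA the shift was 0.15 (428 and 141, against 208 and 211). The split also moved for RCOR1 siRNA in R1881 (1100 and 524, against 779 and 1128) and its interaction (29 and 28, against 35 and 83). DDX58, SAMD9L and EPSTI1 are limited by depth, as are SOCS1 of the inhibitors and CCL5, CXCL8 and CXCL11 of the chemokine list. IFI16, IRF9 and MX2 did not pass the low-count filter of the main fit. With no low-count filter IFI16 was lower in R1881 with UPF1 siRNA (-1.34, edgeR adjusted p = 0.047), and no other comparison called any of the 3.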
